A study of Mus musculus with 4 samples.

Results

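Spp1-high microglia are microglia of the stroke-injured mouse brain whose UMIs are at least 1% Spp1, Lpl, Cst7, Gpnmb and Itgax, the genes of the disease-associated microglial signature. They were chosen cell by cell from 4 droplet libraries. A cell had to hold at least 500 UMIs and 300 genes with a mitochondrial share of at most 20%, at least 3 UMIs of the microglial gate (P2ry12, Tmem119, P2ry13, Gpr34, Olfml3 and Fcrls) and no UMI of the T cell genes Cd3e, Cd3g and Trac. Its 8 interferon genes (Ifit1, Ifit2, Ifit3, Isg15, Rsad2, Oasl2, Irf7 and Usp18) had to stay below 3 UMIs or below 0.1% of its UMIs. This left 1105 cells of 55902. They were set against the 21482 remaining microglia of the same gate, with a signature below 1% and no interferon-high profile. A further 2290 gated cells were interferon-high and entered neither state.

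The cells came from the ipsilateral brain hemispheres of wild-type mice, taken 14 days after ischemic stroke, with hydrogel microspheres (MAPS) placed into the infarct cavity at day 5. In 3 groups the microspheres carried extracellular vesicles (EV) that came from astrocytes and differed between the groups. These were the group IL-4 C1q EV+MAPS (here IL-4/C1q EV), the group IL-1a TNFa C1q EV+MAPS (here IL-1a/TNFa/C1q EV) and the group UT EV+MAPS (here UT EV), while MAPS had microspheres alone. The labels do not spell out UT. Each group is 1 library, so differences between libraries have no replicate check, and group, animal and run cannot be told apart. Strain, sex, age and the number of animals per library are not given in the sources used here. Single-cell suspensions of digested tissue went into 10x Chromium 3′ v3 libraries, and the deposited values are UMI counts. Levels are given as CPM, the UMIs of a gene per 1000000 UMIs summed over the cells of one state in one library.

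MAPS stood apart from the EV libraries in depth and mitochondrial content before any comparison was made. Total UMIs were 46981829 in IL-4/C1q EV, 52552617 in IL-1a/TNFa/C1q EV, 45691141 in UT EV and 81189155 in MAPS, and the median cell held 2480, 2608, 2673.5 and 4557 UMIs. Median mitochondrial shares lay between 0.550% and 0.575% in the EV libraries and at 1.42% in MAPS. No barcode of IL-1a/TNFa/C1q EV fell below 1233 UMIs, whereas the other libraries reached down to 500. Between 41 and 63 cell barcodes were shared by each pair of libraries, and none of them was shared between Spp1-high microglia.

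Microglia are the resident macrophages of the brain, and P2ry12, Tmem119 and Cx3cr1 mark their resting state. Near dying or demyelinated tissue they can take on the disease-associated state, in which receptors such as Trem2 sense lipids and debris, lysosomal and lipid-handling genes go up and resting genes go down. Spp1 encodes osteopontin, a secreted phosphoprotein that binds integrins and Cd44. Lpl is a lipase for lipoprotein particles, Cst7 (cystatin F) an inhibitor of lysosomal proteases, Gpnmb a lysosome-linked glycoprotein and Itgax the integrin chain CD11c.

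Spp1 carried the signature almost by itself in the EV libraries, so that the cells are called by that gene here. It supplied 97.0% of the signature UMIs in IL-4/C1q EV, 97.4% in IL-1a/TNFa/C1q EV, 96.8% in UT EV and 76.8% in MAPS. Spp1 alone reached the 1% threshold in 239 of 254, 291 of 307, 322 of 334 and 130 of 210 cells. All 5 signature genes were detected in 15%, 18.6%, 21.0% and 45.7% of the cells, at median depths of 6241, 7848, 7673.5 and 11963 UMIs. Only MAPS held cells led by another signature gene, 11 by Lpl and 1 by Cst7. The disease-associated label thus rests mainly on Spp1, and less so in MAPS than in the other libraries. In MAPS Spp1 still led in 198 of 210 cells, and the other 4 genes together reached 1% in 9.

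Each signature gene is given in CPM as a description, since these values chose the cells. Spp1 stood at 59225, 64921, 52213 and 17144 CPM in Spp1-high microglia of IL-4/C1q EV, IL-1a/TNFa/C1q EV, UT EV and MAPS, against 527, 471, 565 and 425 CPM in the remaining microglia. Lpl stood at 329, 239, 345 and 2274 CPM against 38.6, 38.7, 46.5 and 247 CPM, and Cst7 at 811, 929, 844 and 1535 CPM against 56.4, 84.5, 74.9 and 289 CPM. By CPM, Spp1 was thus lowest in MAPS, while Lpl and Cst7 were highest there. TMM factors, which rescale a library for genes that take a large share of its UMIs, were 1.74 in MAPS. They were 0.788 to 0.871 in the EV libraries. With them Spp1 stayed lowest and Lpl highest in Spp1-high cells of MAPS, but Cst7 was lowest there. Gpnmb was 554, 420, 376 and 805 CPM against 46.0, 74.6, 48.0 and 55.9 CPM. Itgax was 161, 134, 154 and 566 CPM against 11.1, 14.6, 16.7 and 77.1 CPM. With each cell thinned to 2000 UMIs, Lpl was seen in 36.7%, 28.9%, 43.3% and 81.0% of Spp1-high cells and Cst7 in 71.6%, 73.8%, 67.1% and 79.5%. The higher Lpl of MAPS was thus also seen at a fixed depth. Shallower cells were left out of the thinning, 25 in IL-4/C1q EV, 9 in IL-1a/TNFa/C1q EV, 36 in UT EV and 0 in MAPS.

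**Figure D1:**
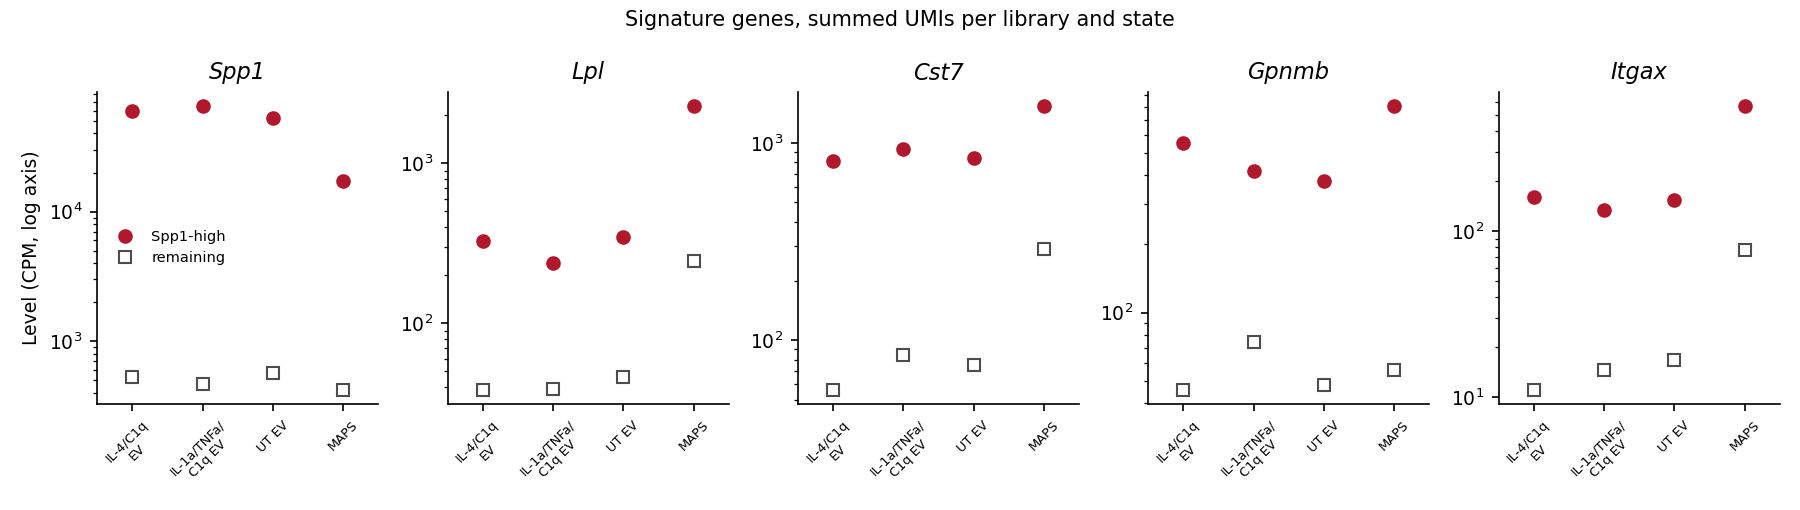
Levels of the 5 signature genes in CPM on log axes, one panel a gene, in Spp1-high (filled) and remaining (open) microglia of each library; there are no error bars because each group is 1 library. Spp1 is lower in MAPS (17144 CPM) than in the EV libraries (52213 to 64921 CPM) among Spp1-high cells, whereas Lpl is higher (2274 CPM against 239 to 345 CPM).

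Spp1 was also read at a low level outside the Spp1-high cells. Endothelial cells and oligodendrocytes were taken as cells that should not make it. The remaining microglia were not, since they include cells with a signature of 0.75 to 1%, at 7901, 7153, 7632 and 4659 CPM of Spp1. A Spp1 UMI was found in 28.7%, 33.5%, 33.1% and 32.7% of the remaining microglia of IL-4/C1q EV, IL-1a/TNFa/C1q EV, UT EV and MAPS. In endothelial cells the share was 20.0%, 27.9%, 25.1% and 21.8%, and in oligodendrocytes 23.5%, 30.4%, 27.0% and 20.5%. Levels were 335, 807, 226 and 52.9 CPM in endothelial cells and 1065, 283, 267 and 32.1 CPM in oligodendrocytes. At the CPM given above, the remaining microglia lay above both other cell types in UT EV and MAPS and between them in IL-4/C1q EV and IL-1a/TNFa/C1q EV. Spp1-high cells stood above all of them in every library.

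The promoters of the signature genes are printed because the cells are defined by them, with the motif found in each in capitals. The motifs were CACGTG (an E-box bound by the lysosomal regulators TFEB and MITF), TGAGTCA (the AP-1 site) and GAGGAAGT (a PU.1 site), searched on both strands from 250 bases before to 50 bases after the start. The sequences are those of RefSeq for GRCm38.p6, matched by symbol, and 4 of the 5 genes have one there. Spp1 lies at chr5:104434861-104435160 on the + strand, with GAGGAAGT at -113 from the start.
Spp1: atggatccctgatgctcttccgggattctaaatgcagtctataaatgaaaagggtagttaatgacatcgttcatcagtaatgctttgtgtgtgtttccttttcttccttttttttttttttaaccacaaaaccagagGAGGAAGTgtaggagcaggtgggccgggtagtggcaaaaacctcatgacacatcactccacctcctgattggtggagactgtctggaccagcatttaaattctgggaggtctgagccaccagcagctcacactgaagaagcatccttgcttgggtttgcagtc
Gpnmb lies at chr6:49036268-49036567 on the + strand, with TGAGTCA, read on the other strand, at 8 bases after the start.
Gpnmb: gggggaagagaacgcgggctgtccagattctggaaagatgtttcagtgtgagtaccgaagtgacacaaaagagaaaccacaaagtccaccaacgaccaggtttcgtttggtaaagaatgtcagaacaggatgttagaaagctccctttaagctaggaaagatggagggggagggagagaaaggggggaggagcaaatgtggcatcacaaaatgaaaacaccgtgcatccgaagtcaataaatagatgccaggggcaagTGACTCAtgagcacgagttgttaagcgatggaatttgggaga
Itgax lies at chr7:128129300-128129599 on the + strand, with TGAGTCA at -56.
Itgax: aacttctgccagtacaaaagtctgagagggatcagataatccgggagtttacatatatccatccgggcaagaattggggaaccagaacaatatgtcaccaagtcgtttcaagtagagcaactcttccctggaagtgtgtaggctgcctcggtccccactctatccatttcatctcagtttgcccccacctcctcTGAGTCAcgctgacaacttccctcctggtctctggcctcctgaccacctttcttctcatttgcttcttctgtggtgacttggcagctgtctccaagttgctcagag
Over all 27025 promoters of the table, TGAGTCA occurred in 5.95% and GAGGAAGT in 3.69%. These matches are letters in a window, not measured binding. None of the 7 promoters available for the 10 ranked genes with the highest folds, at 50 CPM or more in the mean of 1 state, held any of the 3 motifs.

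Spp1-high cells made up 4.35% (254 of 5837 cells, 95% exact Clopper-Pearson interval 3.84 to 4.91%) of gated microglia in IL-4/C1q EV and 4.97% (307 of 6182, 4.44 to 5.54%) in IL-1a/TNFa/C1q EV. They made up 6.06% (334 of 5516, 5.44 to 6.72%) in UT EV and 2.86% (210 of 7342, 2.49 to 3.27%) in MAPS. UT EV had the highest share and MAPS the lowest, while the interval of UT EV overlapped that of IL-1a/TNFa/C1q EV. These intervals cover counting error only. The ratio to UT EV was 0.719 for IL-4/C1q EV and 0.820 for IL-1a/TNFa/C1q EV, and the ratio of UT EV to MAPS was 2.12. The rule bars interferon-high cells from the Spp1-high state but not from the denominator, and these were 1673 of the gated cells in IL-4/C1q EV against 249 in UT EV. With interferon-high cells left out of the denominator, a choice made after seeing the data, the shares were 6.10% (5.39 to 6.87%) in IL-4/C1q EV, 5.09% in IL-1a/TNFa/C1q EV, 6.34% (5.70 to 7.03%) in UT EV and 2.95% in MAPS. The ratio of IL-4/C1q EV to UT EV was then 0.962, with overlapping intervals. Of all filtered cells they were 1.77%, 2.05%, 2.62% and 1.52%.

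That order depended on depth and on how much weight Spp1 had. Among gated cells of at least 5000 UMIs the shares were 17.2%, 20.8%, 20.8% and 5.64% in IL-4/C1q EV, IL-1a/TNFa/C1q EV, UT EV and MAPS, and UT EV exceeded MAPS by 3.69 times. With cells of at least 1000 UMIs thinned to 1000 UMIs and the rule applied again, they were 3.37%, 2.46%, 4.05% and 2.48%. Thinning took the gated cells from 5837, 6182, 5516 and 7342 to 2792, 2842, 2691 and 6413. It left 94, 70, 109 and 159 Spp1-high cells. The part of this loss of gated cells in the shares was not tested. Without Spp1, and with Lpl, Cst7, Gpnmb and Itgax at 0.5% or more, the order turned round between MAPS and the rest. That signature left 6, 6, 4 and 163 cells, or 0.103%, 0.0971%, 0.0725% and 2.22% of gated microglia, and a UT EV to MAPS ratio of 0.0327.

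**Figure D2:**
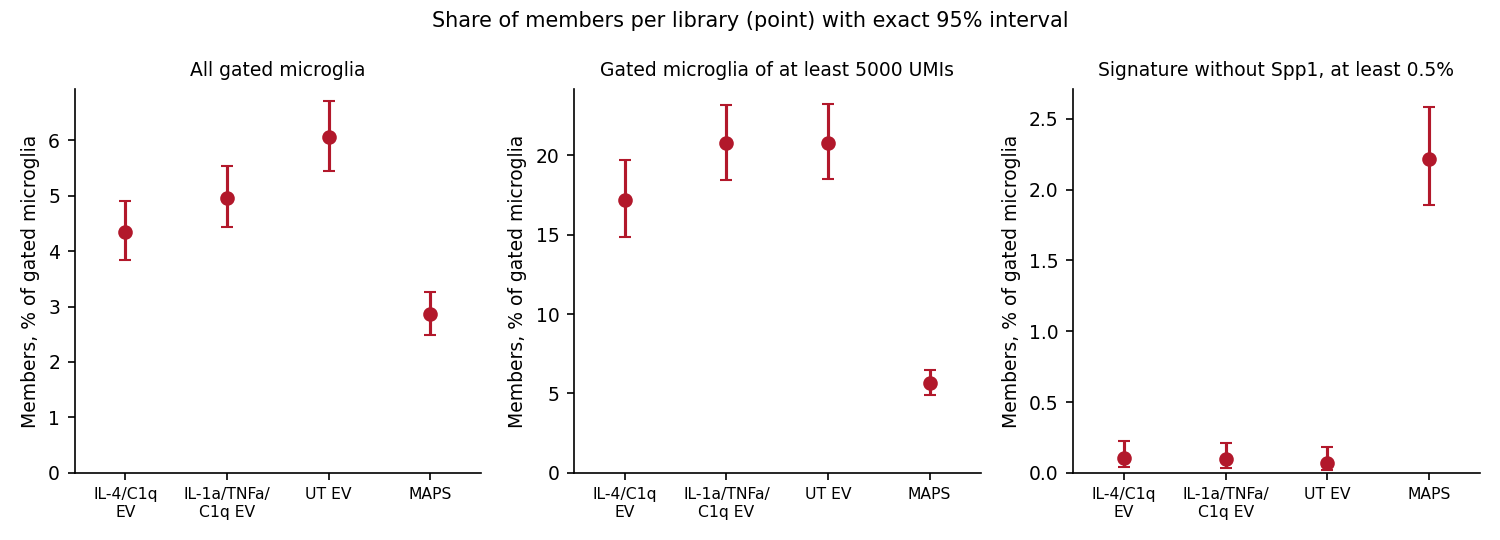
Spp1-high cells as a percent of gated microglia (points) with exact 95% intervals (bars), one point a library, for all gated cells (left), gated cells of at least 5000 UMIs (middle) and a signature without Spp1 at 0.5% (right). The EV libraries lie above MAPS in the left panels (4.35 to 6.06% against 2.86% for all gated cells) and below it in the right panel (0.0725 to 0.103% against 2.22%).

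The Spp1-high cells were the deeper part of the microglia. Their median UMIs were 6241, 7848, 7673.5 and 11963 in IL-4/C1q EV, IL-1a/TNFa/C1q EV, UT EV and MAPS, against 2481, 2521, 2834 and 4646.5 in the remaining microglia. Median genes per cell were 1513.5, 1623, 1731 and 3186 against 997, 975, 1114 and 2063. Called doublets were 1.57%, 3.26%, 2.99% and 3.33% of them (4, 10, 10 and 7 cells), below the 5.22%, 5.05%, 3.65% and 4.81% of all cells.

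Among themselves, the cells differed widely in Spp1, with a highest share of a cell's UMIs of 22.9% in IL-4/C1q EV, 23.6% in IL-1a/TNFa/C1q EV, 22.3% in UT EV and 7.64% in MAPS. Cells with a signature of 5% or more numbered 107, 150, 117 and 11. In that band Cst7 stood at 1141, 1161, 1157 and 3108 CPM, against 488, 580, 547 and 1325 CPM in cells of 1 to 2%. Cd9, a tetraspanin, stood at 7402, 6810, 7381 and 4692 CPM against 4354, 3918, 4267 and 3448 CPM. Apoe, the lipid carrier apolipoprotein E, ran the other way. It stood at 86420, 72509, 77270 and 56807 CPM in the highest band and 184395, 152124, 169139 and 80306 CPM in the lowest. Ms4a7, which marks macrophages, was 160, 147, 122 and 94.4 CPM in the highest band against 558, 929, 610 and 152 CPM in the lowest. Plin2, the coat protein of lipid droplets, was 134, 207, 126 and 174 CPM against 294, 345, 372 and 314 CPM. The cells with most Spp1 thus held more Cst7 and Cd9 and less Apoe, Ms4a7 and Plin2 in all 4 libraries. The bands were cut on the signature itself, so these values are a description.

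**Figure D3:**
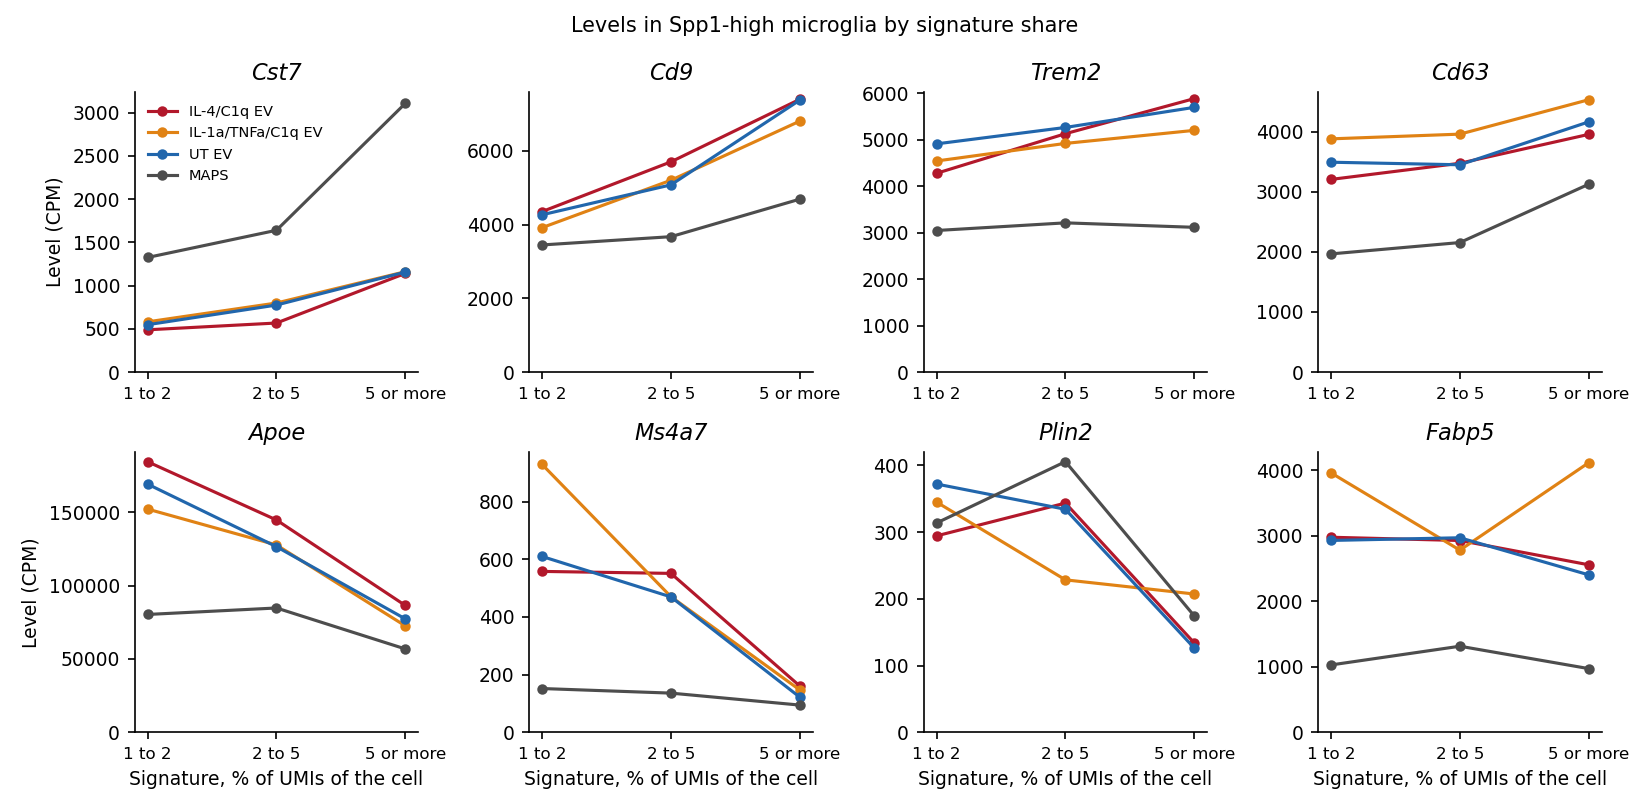
Levels in CPM of 8 genes in Spp1-high microglia by the signature share of the cell (1 to 2%, 2 to 5%, 5% or more), one line a library; IL-4/C1q EV has 68, 79 and 107 cells per band, IL-1a/TNFa/C1q EV has 75, 82 and 150, UT EV has 95, 122 and 117 and MAPS has 128, 71 and 11. Cst7 and Cd9 are higher and Apoe, Ms4a7 and Plin2 lower in the highest band than in the lowest.

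Just inside the threshold, at 1 to 1.25%, were 22, 30, 35 and 55 cells with 9909, 9849, 10299.6 and 6811 CPM of Spp1. Just outside it, at 0.75 to 1%, were 39, 39, 37 and 95 cells with 7901, 7153, 7632 and 4659 CPM. Apoe inside was 208498, 163874, 207681 and 82658 CPM against 168906, 146604, 199311 and 95848 CPM outside. Gate UMIs were fewer in the EV libraries, where the median Spp1-high cell held 9, 9 and 10, against 32 in MAPS. The median remaining cell held 7, 6, 8 and 34, so this was seen in both states. Spp1-high cells at the minimum of 3 gate UMIs numbered 25, 28, 32 and 1, or 9.84%, 9.12%, 9.58% and 0.476%. Of the remaining microglia 11.4%, 13.7%, 8.72% and 2.31% were at the minimum.

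Markers of macrophages and monocytes summed to more in Spp1-high cells of each library, although not every marker was higher. The 9 markers (Ms4a7, Ccr2, Ly6c2, F13a1, Pf4, Mrc1, Cd163, Lyve1 and Plac8) summed to 498, 695, 501 and 207 CPM in Spp1-high cells of IL-4/C1q EV, IL-1a/TNFa/C1q EV, UT EV and MAPS, against 405, 548, 359 and 70.9 CPM in the remaining microglia. Spp1-high cells with 3 to 5 gate UMIs had sums of 1176, 1867, 996 and 451 CPM, the last from 5 cells. Those with 6 or more had 314, 299, 404 and 203 CPM. The latter lay below the remaining microglia in IL-4/C1q EV and IL-1a/TNFa/C1q EV and above them in UT EV and MAPS. Ms4a7 made up most of the Spp1-high sums, with 374, 417, 388 and 143 CPM against 279, 381, 252 and 25.3 CPM. Mrc1 was lower in each library, at 5.46, 4.09, 4.64 and 1.56 CPM against 20.0, 16.1, 18.2 and 10.2 CPM. Cd163 was at 0 in Spp1-high cells of all 4 libraries. The other marker lists were lower in Spp1-high cells of each library, except the T cell genes that the rule held at 0 and NK markers in IL-4/C1q EV, which summed to 13.9 CPM against 10.3 CPM. Dendritic markers summed to 1.82, 0.818, 1.16 and 8.96 CPM against 5.23, 9.61, 4.66 and 11.6 CPM, and oligodendrocyte markers to 201, 235, 238 and 462 CPM against 793, 686, 925 and 2252 CPM. Without the cells holding 2 or more macrophage marker UMIs the shares of gated microglia were 3.66%, 3.82%, 4.64% and 2.37%.

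Cells with the signature and no gate UMI were found in the EV libraries and not in MAPS. Those with a signature of at least 1% and no gate UMI numbered 86 in IL-4/C1q EV, 49 in IL-1a/TNFa/C1q EV, 113 in UT EV and 0 in MAPS. Spp1-high microglia with 6 or more gate UMIs had Gpnmb at 339, 313 and 331 CPM in the EV libraries, against 3764, 2101 and 2523 CPM in these ungated cells. Cst7 was 933, 1060.1 and 921 CPM against 31.5, 50.1 and 44.4 CPM, and Ms4a7 250, 271 and 329 CPM against 1106, 1732 and 1146 CPM. Spp1-high cells with 3 to 5 gate UMIs lay between these, with Gpnmb at 1349, 737 and 608 CPM and Cst7 at 364, 542 and 447 CPM. Where these cells come from was not tested.

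Set against the remaining microglia of the same library, Spp1-high cells had higher levels of disease-associated, glycolytic, matrix, MHC and lysosomal genes and lower levels of resting microglial genes. Of 12062 genes tested, 2710 (22.5%) rose and 1954 (16.2%) fell at an adjusted p under 0.05, by edgeR's quasi-likelihood test on UMI sums with the library as a block (4 libraries, 2 states each). The cells were split on their own Spp1 share, so the p-values say only that a difference recurred over 4 libraries. The log2 folds use TMM factors taken over both states together. These were 0.711, 0.646, 0.740 and 1.40 in Spp1-high sums of IL-4/C1q EV, IL-1a/TNFa/C1q EV, UT EV and MAPS. They were 1.02, 0.956, 1.05 and 2.05 in the remaining sums. Which genes the factors offset was not tested. With total UMIs only, 962 (7.98%) rose and 6511 (54%) fell, and the median log2 fold of all genes was -0.55 in place of -0.01. Without MAPS, the library that stood apart, 2425 rose and 2013 fell. A gene with a small positive fold can therefore have a lower CPM in Spp1-high cells, and each list is given on both scales.

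Atp6v0d2, a subunit of the proton pump that acidifies lysosomes, had the highest fold among ranked genes outside the cell rule that reached 50 CPM in the mean of 1 state, at 3.98 ± 0.12 on the log2 scale (SE; edgeR adjusted p = 2.3e-09). It stood at 60.1, 59.7, 61.9 and 39.3 CPM in Spp1-high cells of IL-4/C1q EV, IL-1a/TNFa/C1q EV, UT EV and MAPS, against 5.97, 6.30, 5.12 and 3.16 CPM in the remaining cells, with no overlap. Pdcd1, the inhibitory receptor PD-1, had 48.5, 33.6, 45.6 and 96.2 CPM against 1.66, 3.31, 4.43 and 15.8 CPM. Igf1, the insulin-like growth factor 1, had 269, 241, 251 and 474 CPM against 30.0, 41.0, 35.6 and 77.9 CPM (log2 fold 3.31 ± 0.11). By CPM, Pdcd1 and Igf1 were highest in MAPS, whereas Lgals3, the lectin galectin-3, was lowest there. With the TMM factors of Spp1-high cells (1.74 in MAPS, 0.788 to 0.871 in the EV libraries), Pdcd1 and Igf1 were no longer highest in MAPS. Lgals3 stayed lowest there. Lgals3 had 1218, 1446, 1379 and 893 CPM against 188, 283, 239 and 91.7 CPM (3.25 ± 0.14). Capg, an actin-capping protein, had 376, 418, 403 and 400 CPM against 48.7, 72.4, 71.5 and 62.0 CPM (3.20 ± 0.10). Fam20c, a kinase of secreted proteins that include osteopontin, had 88.6, 75.7, 66.9 and 380 CPM against 11.9, 11.3, 10.5 and 48.1 CPM (3.37 ± 0.10). The group also held Ch25h, Fabp3, Fabp4 and Cox6a2, a cytochrome oxidase subunit (3.21 ± 0.22).

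Apart from Cd83, a surface protein of activated immune cells, every gene of the disease-associated list outside the cell rule rose, 29 of 30 with a median log2 fold of 2.08, beside -0.01 over all genes tested. With total UMIs only it was 29 higher and 1 lower with a median of 1.54, and Cd83 was the gene that fell. Apoe stood at 127341 CPM in IL-4/C1q EV and 105600, 121300 and 80650 CPM in IL-1a/TNFa/C1q EV, UT EV and MAPS, against 91690, 97030, 89470 and 36950 CPM (1.07 ± 0.15). The rise in CPM did not hold for all Spp1-high cells. Those with a signature of 5% or more had 86420, 72509 and 77270 CPM of Apoe in the EV libraries, below the remaining microglia. In MAPS they had 56807 CPM, above the remaining microglia. Trem2, the lipid receptor of the state, had 5277, 4973, 5318 and 3111 CPM against 3654, 3943, 3840 and 1983 CPM (1.03 ± 0.10), and its adaptor Tyrobp 7343, 8878, 7058 and 4239 CPM against 3804, 4720, 3756 and 2091 CPM (1.48 ± 0.09). Apoe, Trem2 and Tyrobp, named after their values were seen, thus lay below the median fold of the list. Baiap2l2, a membrane-bending protein, had 14.6, 12.3, 15.1 and 51.8 CPM against 0.664, 0.801, 1.15 and 8.69 CPM (3.83 ± 0.28). Mamdc2 had 5.46, 2.05, 3.48 and 26.9 CPM against 0.249, 0.214, 0.403 and 2.08 CPM (4.15 ± 0.36), which is low in either state.

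Resting microglial genes outside the gate fell in the main, with 16 of 26 lower and 4 higher and a median of -0.74. With total UMIs only it was 23 lower and 3 higher, and among cells of at least 5000 UMIs 11 lower and 8 higher with a median of -0.23. Crybb1, a crystallin that marks mature microglia, stood at 34.6, 33.6, 38.3 and 24.9 CPM in Spp1-high cells, against 496, 482, 452 and 195 CPM (-3.03 ± 0.14). Slc2a5, the fructose transporter GLUT5, stood at 2.43, 2.05, 1.93 and 13.6 CPM against 29.4, 26.2, 36.8 and 183 CPM (-3.26 ± 0.16). Adgrg1, an adhesion receptor, stood at 5.46, 6.55, 9.28 and 39.3 CPM against 78.3, 67.2, 81.9 and 290 CPM (-2.61 ± 0.14). The ranges of the states did not overlap for these genes, and MAPS held the highest Slc2a5 and Adgrg1 in both states. Siglech, a sialic acid receptor, fell by 1.74 ± 0.10 on the log2 scale. Cx3cr1, the fractalkine receptor, had 434, 310, 411 and 1486 CPM against 1064, 750, 1011 and 2853 CPM (-0.67 ± 0.10). Those that rose included the complement subunits C1qa, C1qb and C1qc, named after their values were seen like Cx3cr1.

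The rest of the genes that fell most were of other kinds. Jchain, which joins immunoglobulin units in plasma cells, stood at 1.21, 5.73, 1.55 and 1.17 CPM against 58.5, 85.7, 63.4 and 29.3 CPM (-4.05 ± 0.22). Opalin, an oligodendrocyte gene, fell by 2.0 ± 0.21, and Ttr, the thyroid hormone carrier of the choroid plexus, by 1.97 ± 0.24. The oligodendrocyte marker sums given above were lower in Spp1-high cells in every library as well, and the part of free RNA in these genes was not tested. Col27a1, a collagen chain (-2.07 ± 0.14), and Thrsp, a regulator of lipogenesis (-2.05 ± 0.14), completed the group with the heat-shock genes Hspa1a and Hspa1b.

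**Figure D4:**
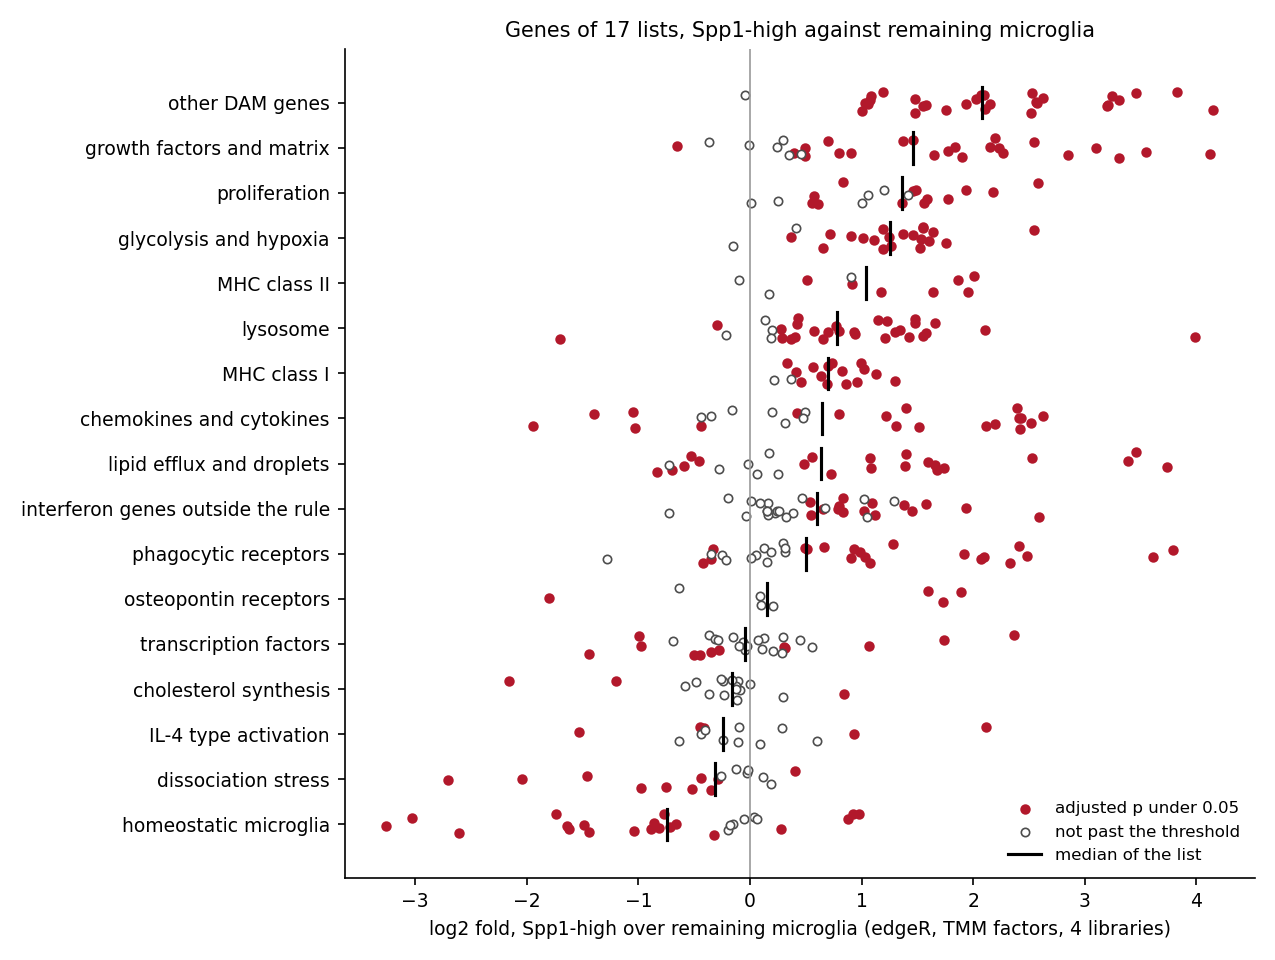
Log2 fold of each gene of 17 lists, Spp1-high over remaining microglia, with TMM factors; filled points passed an edgeR adjusted p of 0.05, open points did not, and the bar is the median of the list. Other disease-associated genes have the highest median (2.08) and resting microglial genes the lowest (-0.74); Mgl2 is left out of the picture because it had no UMI in Spp1-high cells.

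Lysosomal genes rose as a group, 26 of 32 with 2 lower and a median of 0.78. With total UMIs only 17 rose and 7 fell, and among cells of at least 5000 UMIs it was 25 and 1. Ctsl, the protease cathepsin L, stood at 12265, 12346, 9794 and 3589 CPM against 3467, 3647, 3196 and 1692 CPM (2.11 ± 0.13). Glb1, the lysosomal beta-galactosidase, stood at 71.0, 56.1, 46.0 and 155 CPM against 22.8, 27.2, 23.9 and 79.4 CPM (1.66 ± 0.12). Ctsl was thus lowest and Glb1 highest in MAPS, and both rose in each library. Ctsk, cathepsin K, fell (-1.70 ± 0.26), with 2.43, 8.59, 2.32 and 1.95 CPM against 8.71, 33.8, 22.7 and 6.0 CPM.

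Promoters of lysosomal genes that rose are shown for the E-box CACGTG, here in capitals. Of the 26 genes, 19 have a promoter in the RefSeq table, and 7 of them (36.8%) hold CACGTG, namely Atp6v0d1, Atp6v1a, Ctsa, Ctsd, Ctsl, Glb1 and Lamp1. The motif occurred in 8.09% of all promoters, in 12.1% of the 9230 promoters of the genes tested and in 13.6% of the genes that rose. The other motifs were also above the genes tested in these 19 promoters. GAGGAAGT was in 3 (15.8%, against 3.95%) and TGAGTCA in 2 (10.5%, against 4.28%). No share was taken for lysosomal genes that did not rise, so a link of the motif to the rise was not tested. Lamp1, a lysosomal membrane protein, lies at chr8:13158911-13159210 on the + strand with CACGTG at -61, -45, -28 and -15.
Lamp1: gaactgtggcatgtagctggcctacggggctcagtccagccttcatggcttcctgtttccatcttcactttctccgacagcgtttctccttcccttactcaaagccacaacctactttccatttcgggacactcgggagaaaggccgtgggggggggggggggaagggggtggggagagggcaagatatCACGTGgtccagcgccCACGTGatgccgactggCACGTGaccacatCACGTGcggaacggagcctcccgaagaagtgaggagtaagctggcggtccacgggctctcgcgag
Ctsd, the protease cathepsin D, lies at chr7:142387778-142388077 on the - strand with CACGTG at -245 and -98.
Ctsd: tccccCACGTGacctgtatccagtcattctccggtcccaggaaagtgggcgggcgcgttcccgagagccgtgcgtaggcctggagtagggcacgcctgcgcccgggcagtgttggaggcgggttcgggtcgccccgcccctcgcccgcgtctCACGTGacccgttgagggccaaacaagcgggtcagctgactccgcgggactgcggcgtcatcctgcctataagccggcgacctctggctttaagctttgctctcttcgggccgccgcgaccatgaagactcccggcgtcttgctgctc
Ctsa, the protective protein cathepsin A, lies at chr2:164833523-164833822 on the + strand with CACGTG at -12 and 5.
Ctsa: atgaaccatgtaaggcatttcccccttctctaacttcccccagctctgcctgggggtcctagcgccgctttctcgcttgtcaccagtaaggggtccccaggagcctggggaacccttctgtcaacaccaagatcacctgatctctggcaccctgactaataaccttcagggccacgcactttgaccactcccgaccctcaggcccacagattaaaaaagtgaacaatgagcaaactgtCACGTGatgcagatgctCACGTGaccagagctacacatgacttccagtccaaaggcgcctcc
Mitf, one of the factors that bind this E-box, had 34.0, 24.1, 24.8 and 74.4 CPM in Spp1-high cells of IL-4/C1q EV, IL-1a/TNFa/C1q EV, UT EV and MAPS, against 20.7, 18.0, 20.4 and 46.6 CPM in the remaining cells (1.07 ± 0.12). No binding was measured.

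Genes that handle lipids inside the cell split. Of 26 genes of lipid efflux and droplets, 15 rose and 5 fell with a median of 0.64, and with total UMIs only 12 rose and 9 fell. Among cells of at least 5000 UMIs 8 of 24 rose and 3 fell with a median of 0.06, and without cells holding 2 or more macrophage marker UMIs 10 of 25 rose and 5 fell with a median of 0.31. Fabp5, a carrier of fatty acids, stood at 2772, 3747, 2764 and 1130 CPM against 713, 914, 677 and 293 CPM (2.53 ± 0.09), and its relative Fabp3 at 221, 215, 160 and 67.8 CPM against 21.5, 25.7, 20.8 and 17 CPM (3.39 ± 0.18). Both were lowest in MAPS. Ch25h, which makes 25-hydroxycholesterol, stood at 34.0, 24.1, 36.8 and 168 CPM against 3.98, 3.79, 3.80 and 24.3 CPM (3.46 ± 0.13) and was highest there. Fabp4 stood at 29.1, 81.8, 66.1 and 24.5 CPM against 13, 10.6, 4.43 and 0.425 CPM (3.73 ± 0.45), and its UMIs came from only 12, 17, 17 and 8 cells. Without the cells holding 2 or more macrophage marker UMIs its log2 fold was 0.74 (edgeR adjusted p = 0.482). Of 17 cholesterol synthesis genes 1 rose and 2 fell with a median of -0.16. With total UMIs only 0 rose and 13 fell. Sqle, the squalene epoxidase, was among those that fell (-1.20 ± 0.44), at 0.607, 0.409, 1.93 and 2.73 CPM against 3.07, 2.08, 2.19 and 13 CPM. Dhcr7, a late enzyme of the pathway, was the one that rose (0.84 ± 0.27), at 7.28, 7.77, 2.32 and 27.7 CPM against 4.89, 3.79, 5.12 and 22.2 CPM, although its CPM was lower in Spp1-high cells of UT EV. These calls rest on few UMIs, and both were lost under DESeq2 and without IL-4/C1q EV, IL-1a/TNFa/C1q EV or MAPS.

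Glycolysis and hypoxia genes rose almost throughout, 20 of 22 with none lower and a median of 1.25 (16 higher and 1 lower with total UMIs only). Pkm, the pyruvate kinase, stood at 252, 209, 220 and 722 CPM against 99.1, 97.1, 93.0 and 313 CPM (1.76 ± 0.08). Gapdh stood at 951, 1041, 1013 and 1209 CPM against 425, 476, 502 and 615 CPM (1.60 ± 0.09). Pkm was highest in MAPS in both states. Egln3, an oxygen-sensing prolyl hydroxylase, stood at 13.3, 11.9, 11.6 and 19.9 CPM against 3.57, 2.08, 2.30 and 6.80 CPM (2.54 ± 0.23).

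Among secreted signals and matrix genes, growth factors and matrix rose in 22 of 29 cases with 1 lower and a median of 1.46 (18 and 2 with total UMIs only). Mmp12, the macrophage elastase, stood at 21.2, 23.7, 33.6 and 78.7 CPM against 2.65, 2.67, 1.96 and 5.64 CPM (4.12 ± 0.19), with UMIs from 11, 7, 13 and 25 cells. Plau, the plasminogen activator urokinase, stood at 99.5, 78.2, 121 and 355 CPM against 14.0, 13.4, 20.0 and 68.5 CPM (3.10 ± 0.10). Postn, the matrix protein periostin, stood at 18.2, 7.37, 5.80 and 94.7 CPM against 1.58, 0.694, 1.78 and 10.6 CPM (3.54 ± 0.25). Plau and Postn were highest in MAPS.

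Of 26 chemokines and cytokines 14 rose and 5 fell with a median of 0.65, and with total UMIs only 11 rose and 8 fell. Csf1, a growth factor of macrophages, stood at 413, 245, 279 and 971 CPM against 79.7, 53.2, 67.5 and 380 CPM (2.52 ± 0.15). Cxcl2, a neutrophil chemokine, stood at 402, 351, 620 and 315 CPM against 113, 112, 144 and 79.8 CPM (2.43 ± 0.09), and Ccl6 at 298, 201, 302 and 948 CPM against 59.1, 63.7, 70.7 and 196 CPM (2.63 ± 0.11). Cxcl14 rose by 2.42 ± 0.17. The 5 that fell were Ccl2, Ccl12, Il1a, Il6 and Il18, named after their values were seen. Without MAPS 8 fell.

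Receptors for debris rose in part, with 17 of 32 phagocytic receptors higher and 3 lower and a median of 0.50 (14 and 11 with total UMIs only, and 18 and 5 without MAPS). Olr1, a scavenger receptor for oxidised lipoprotein, stood at 26.1, 18.0, 22.8 and 81.8 CPM against 2.57, 1.44, 2.19 and 10.2 CPM (3.79 ± 0.16). Cd36, a fatty acid and lipoprotein receptor, stood at 12.7, 11.5, 19.7 and 28.8 CPM against 1.16, 2.14, 2.93 and 2.31 CPM (3.61 ± 0.25). Msr1 (2.48 ± 0.31) and Cd300lb (2.41 ± 0.27) rose as well. Of 8 receptors for osteopontin, 3 rose and 1 fell on the TMM scale, and 3 rose and 5 fell with total UMIs only. Those that rose were the integrin chains Itga4 (1.89 ± 0.17) and Itga5 (1.73 ± 0.16) and Cd44 (1.59 ± 0.18), and Itga9 fell (-1.80 ± 0.25). Cd44 stood at 13.9, 13.1, 11.2 and 46.0 CPM against 7.55, 7.90, 6.67 and 16.1 CPM.

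MHC class II genes rose in 7 of 10 cases with none lower and a median of 1.04 (6 and 0 with total UMIs only), and the size differed from library to library. Cd74, the invariant chain, stood at 1251, 5948, 4048 and 1202 CPM in Spp1-high cells of IL-4/C1q EV, IL-1a/TNFa/C1q EV, UT EV and MAPS, against 673, 1448, 1191 and 530 CPM (2.01 ± 0.17). H2-Aa, a chain of the peptide-presenting dimer, stood at 338, 1680, 1126 and 265 CPM against 221, 420, 336 and 143 CPM (1.86 ± 0.20). IL-1a/TNFa/C1q EV and UT EV held the high values of both genes. Among cells of at least 5000 UMIs the log2 folds of Cd74 and H2-Aa were 0.94 and 0.74, and H2-Eb1 lost its call there (0.51, edgeR adjusted p = 0.0618). MHC class I genes rose in 15 of 17 cases with none lower and a median of 0.70, but 6 rose and 1 fell with total UMIs only. H2-D1, a classical class I chain, stood at 2814, 3402, 3321 and 2828 CPM against 1665, 1881, 1848 and 1856 CPM (1.30 ± 0.09). Of 34 interferon genes that the rule did not use, 15 rose and none fell with a median of 0.60, and with total UMIs only 8 rose and 8 fell. Ifi27l2a, a mitochondrial interferon-induced protein, stood at 2129, 1239, 1253 and 325 CPM against 692, 176, 210 and 143 CPM (2.59 ± 0.23).

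Of 29 transcription factors 5 rose and 7 fell with a median of -0.04, and with total UMIs only 3 rose and 20 fell. Without MAPS 6 rose and 12 fell, without UT EV 4 and 4, and without IL-4/C1q EV 3 and 5. Bhlhe40, a repressor known from this state, stood at 25.5, 26.6, 36.0 and 111 CPM against 7.05, 7.96, 8.29 and 34.5 CPM (2.37 ± 0.12). Sall1, the factor of microglial identity, stood at 15.2, 13.9, 16.2 and 78.3 CPM against 64.7, 53.4, 70.8 and 288 CPM (-1.45 ± 0.10). Nr1h3, the sterol receptor LXR alpha, rose by 1.74 ± 0.35, at 3.64, 3.68, 2.71 and 3.89 CPM against 1.58, 1.33, 1.04 and 2.10 CPM. IL-4 type activation genes showed no common direction, with 2 of 15 higher and 4 lower (1 and 10 with total UMIs only). Il1rn, the interleukin-1 receptor antagonist, rose (2.12 ± 0.20), Mrc1, the mannose receptor, fell (-1.53 ± 0.21), and Mgl2, a lectin, had no UMI in Spp1-high cells of any library. Of 16 genes of dissociation stress 9 fell and 1 rose with a median of -0.32 (15 and 0 with total UMIs only), led by Hspa1b at 3.64, 8.18, 18.6 and 102 CPM against 55.6, 80.5, 150 and 973 CPM (-2.71 ± 0.12). Among cells of at least 5000 UMIs it was 4 lower and 2 higher with a median of -0.04.

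Proliferation genes rose in 13 of 19 cases with none lower and a median of 1.36. With total UMIs only 6 rose and 2 fell, 5 of 17 rose among cells of at least 5000 UMIs, and without UT EV 8 of 19 rose with a median of 0.63. Cdk1, the mitotic kinase, stood at 15.2, 21.3, 31.7 and 23.4 CPM against 8.21, 8.71, 7.37 and 10.6 CPM (1.93 ± 0.19). Cells with 10 or more UMIs of the 20 proliferation genes numbered 5, 26, 27 and 31, or 1.97%, 8.47%, 8.08% and 14.8% of Spp1-high cells, against 2.23%, 2.80%, 3.16% and 4.74% of the remaining microglia. IL-4/C1q EV held fewest. With cells thinned to 2000 UMIs, those with 4 or more such UMIs were 3.06%, 6.38%, 8.72% and 6.67% against 4.81%, 6.0%, 5.15% and 4.30%. The Spp1-high share was then below that of the remaining microglia in IL-4/C1q EV and above it in the other libraries. No cycling is read from these counts alone.

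Between libraries, interferon genes were higher and MHC class II genes lower in Spp1-high microglia of IL-4/C1q EV than of UT EV. Of 3115 genes with at least 100 UMIs in both libraries together, 46 (1.48%) were more than 1.5-fold higher and 116 (3.72%) more than 1.5-fold lower, with a median log2 ratio of -0.04. With TMM factors it was 63 (2.02%) and 93 (2.99%). There is no test, and the intervals of ratios are exact conditional binomial 95% intervals that cover counting error. Of 20 interferon genes outside the rule, 16 were past 1.5-fold higher and none lower, with a median log2 ratio of 0.90. Ifitm3, a membrane protein that blocks virus entry, stood at 721 CPM in IL-4/C1q EV against 244 CPM in UT EV, a ratio of 2.96 (2.68 to 3.26). Slfn5 stood at 96.5 against 34.4 CPM (2.80, 2.15 to 3.67) and Oas1a, a sensor of double-stranded RNA, at 43.7 against 14.7 CPM (2.97, 1.98 to 4.53). The same genes had ratios of 3.6, 5.16 and 3.62 in the remaining microglia, where the median of the list was 1.29, so interferon genes were higher in both states of IL-4/C1q EV. IL-4/C1q EV also held 1673 interferon-high microglia outside both states, against 249 in UT EV.

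MHC class II was lower in Spp1-high microglia of IL-4/C1q EV, in 6 of 7 genes past 1.5-fold with a median log2 ratio of -1.62. H2-Eb1 stood at 222 CPM in IL-4/C1q EV against 797 CPM in UT EV (ratio 0.279, 0.249 to 0.311), H2-Aa at 338 against 1126 CPM (0.300, 0.274 to 0.329) and Cd74 at 1251 against 4048 CPM (0.309, 0.295 to 0.324). In the remaining microglia the ratios were 0.633, 0.658 and 0.565 and the median -0.60. The difference pointed the same way in both states and was larger in Spp1-high cells, which was not tested. Cells with a UMI of H2-Aa, H2-Ab1 or H2-Eb1, thinned to 2000 UMIs, were 49.3% of Spp1-high cells in IL-4/C1q EV, 82.9% in IL-1a/TNFa/C1q EV, 75.2% in UT EV and 38.1% in MAPS. Cells with 5 or more such UMIs were 10.0%, 56.7%, 40.6% and 7.62%, against 3.88%, 7.60%, 5.80% and 1.92% of the remaining microglia.

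Other lists of that comparison were mixed. Chemokines, proliferation genes and growth factor and matrix genes (3 of 18) held lower ones, beside 3.72% of all genes tested. Disease-associated, resting and lysosomal genes showed few or none past 1.5-fold. None of 28 disease-associated genes outside the rule was past it in either direction, and of 23 resting genes none was. Of 28 lysosomal genes 1 was, Glb1, at 71.0 against 46.0 CPM (1.54, 1.18 to 2.01). Of 20 chemokines 6 were lower and none higher, with Cxcl9 at 6.67 against 44.9 CPM (0.149, 0.0722 to 0.276; 4 and 18 cells with a UMI) and Il18bp at 22.4 against 46.4 CPM (0.484, 0.325 to 0.704). Of 6 proliferation genes 4 were lower, led by Ube2c with 1 UMI against 181 UMIs and Birc5 at 3.64 against 49.9 CPM, from 6 and 20 cells. Ttr was the highest gene, at 628 against 154 CPM (4.08, 3.63 to 4.59), with 31.9% of its IL-4/C1q EV UMIs in 1 cell and a ratio of 5.53 in the remaining microglia. The histone genes H1f5 (0.0759, 0.0273 to 0.170) and H2ac24 (0.218, 0.174 to 0.270) were lower, and 43.4% of the UT EV UMIs of H2ac24 lay in 1 cell. The rule genes Lpl and Cst7 had ratios of 0.954 (0.856 to 1.06) and 0.961 (0.897 to 1.03).

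**Figure D5:**
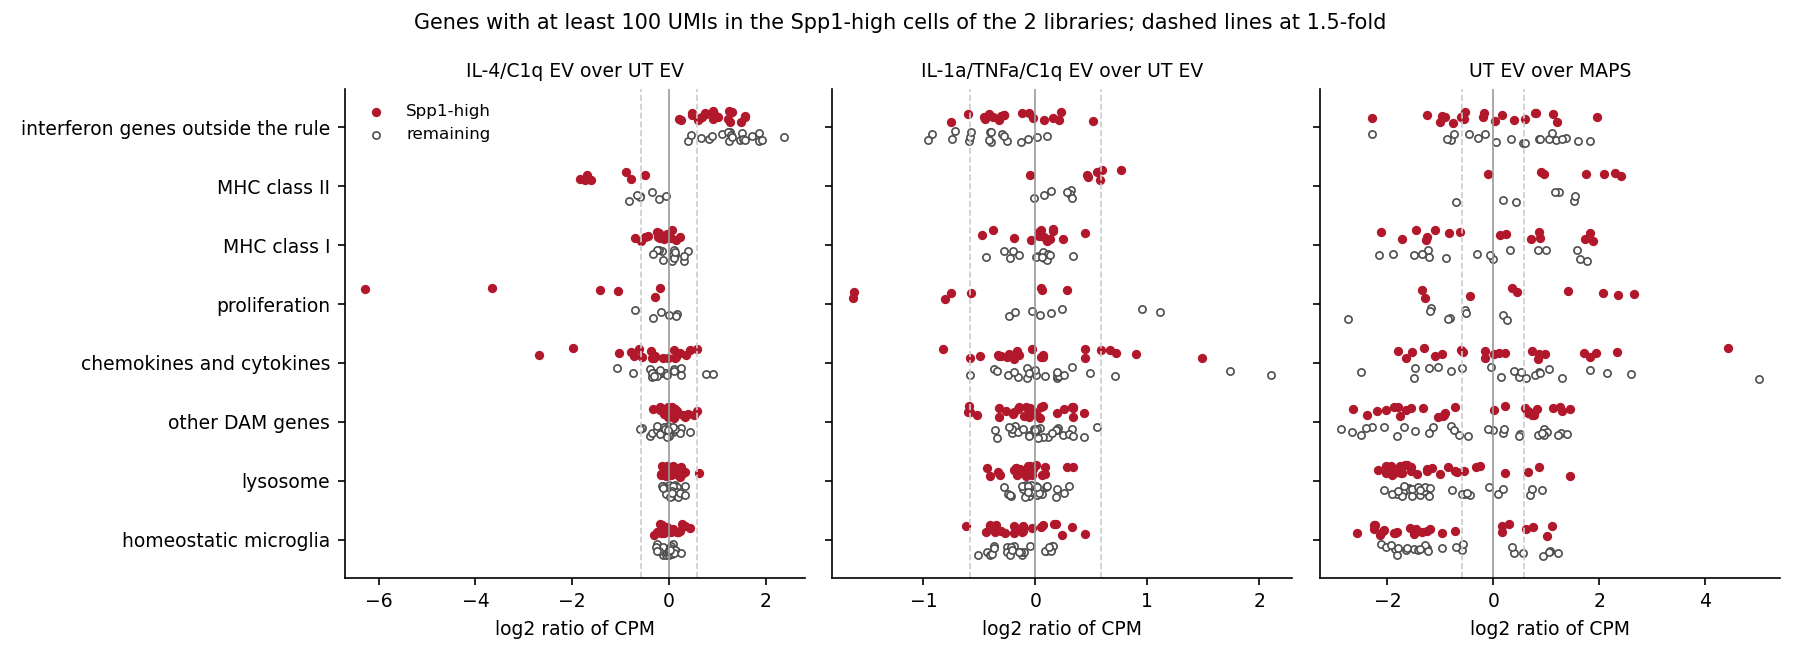
Log2 ratio of CPM for genes of 8 lists in Spp1-high (filled) and remaining (open) microglia, for IL-4/C1q EV over UT EV, IL-1a/TNFa/C1q EV over UT EV and UT EV over MAPS; each point is a gene with at least 100 UMIs in Spp1-high cells and dashed lines mark 1.5-fold. In the left panel 16 of 20 interferon genes lie above and 6 of 7 MHC class II genes below 1.5-fold among Spp1-high cells.

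IL-1a/TNFa/C1q EV against UT EV is the comparison with the same UT EV cells, so both comparisons share those cells and no overlap between them is read. Of 3424 genes, 41 (1.2%) were past 1.5-fold higher and 216 (6.31%) lower, with a median log2 ratio of -0.10. With TMM factors it was 97 (2.83%) and 105 (3.07%), so the surplus of lower genes was not seen on that scale. The remaining microglia had 34 (0.993%) and 46 (1.34%). Ccl5, a T cell chemokine, stood at 1002 CPM in IL-1a/TNFa/C1q EV against 358 CPM in UT EV (2.80, 2.60 to 3.02), and Saa3, an acute-phase protein, at 1043 against 443 CPM (2.35, 2.19 to 2.53). Without macrophage-marker cells the Saa3 ratio was 3.89. Their ratios in the remaining microglia were 4.31 and 5.26. S100a6, a calcium-binding protein, stood at 142 against 56.9 CPM (2.50, 2.05 to 3.05), from 40 and 27 cells. Cxcl10 stood at 243 against 131 CPM (1.86, 1.63 to 2.13).

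Lower in IL-1a/TNFa/C1q EV was Pmepa1, a target and inhibitor of TGF-beta signalling, at 60.2 against 219 CPM (0.275, 0.228 to 0.330), with 0.372 in the remaining microglia. Brd1, a chromatin reader, stood at 4.09 against 48.4 CPM (0.0846, 0.0396 to 0.161), and Csnk2a2, a casein kinase subunit, at 7.37 against 32.9 CPM (0.224, 0.127 to 0.376). Both were lower in the remaining microglia too, at 0.158 and 0.312. Of 7 MHC class II genes 2 were past 1.5-fold higher and none lower with a median of 0.56, or 6 with TMM factors. H2-Eb1 stood at 1208 against 797 CPM (1.52, 1.43 to 1.60). Of 22 chemokines 4 were higher and 2 lower, of 18 growth factor and matrix genes 5 were lower, and of 19 transcription factors 5 were lower, among them Klf4 at 25.4 against 51.8 CPM (0.489, 0.356 to 0.666). Of 28 lysosomal genes none was past 1.5-fold in either direction, and of 28 disease-associated genes 3 were lower, which became 0 with TMM factors. Lpl stood at a ratio of 0.692 (0.622 to 0.769) and Spp1 at 1.24 (1.23 to 1.25).

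Spp1-high microglia of UT EV and MAPS differed in most genes. The depth and mitochondrial gap between these libraries moves with every value, and its part was not tested. Of 4880 genes, 901 (18.5%) were past 1.5-fold higher and 2725 (55.8%) lower, with a median log2 ratio of -0.80. With TMM factors it was 1937 (39.7%) and 1308 (26.8%), with a median of 0.20. The remaining microglia had 951 higher and 2551 lower, so the breadth of the difference was shared by both states. Genes are named here only where both scalings gave the same direction.

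Saa3 stood at 443 CPM in UT EV against 4.28 CPM in MAPS, a ratio of 103 (57.6 to 208), and at 763 and 1043 CPM in the other EV libraries. Its UMIs came from 72 cells in UT EV and 5 in MAPS, and without macrophage-marker cells the ratio was 31.3. In the remaining microglia Saa3 stood at 358 CPM in UT EV against 4.46 CPM in MAPS, so the gap was not particular to Spp1-high cells. Ccl8, a monocyte chemokine, stood at 188 against 8.57 CPM (21.9, 14.3 to 35.3), from 52 and 3 cells, and Ccl2 at 294 against 58.4 CPM (5.03, 4.22 to 6.04). Both lay above MAPS in all EV libraries, with Ccl8 at 47.3 and 150 CPM in IL-4/C1q EV and IL-1a/TNFa/C1q EV and Ccl2 at 171 and 399 CPM. MHC class II was higher in 6 of 7 genes, or 7 with TMM factors. H2-Eb1 stood at 797 against 149 CPM (5.34, 4.79 to 5.98) and H2-Ab1 at 1395 against 286 CPM (4.88, 4.51 to 5.29), with ratios of 2.92 and 2.88 in the remaining microglia. Cxcl12 stood at 61.9 against 3.12 CPM (19.9, 9.84 to 46.8), but 5 cells held 90% of its UT EV UMIs.

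Of 27 phagocytic receptors 19 were past 1.5-fold lower in Spp1-high cells of UT EV than in those of MAPS and 2 higher, or 15 and 7 with TMM factors. Csf1r, the receptor that keeps microglia alive, stood at 259 against 1546 CPM (0.167, 0.154 to 0.182), and Axl, a receptor for dying cells, at 64.6 against 406 CPM (0.159, 0.134 to 0.187). Ctsd stood at 5323 against 21738 CPM (0.245, 0.240 to 0.249) and Fn1, fibronectin, at 83.2 against 413 CPM (0.201, 0.173 to 0.233). Csf1r, Axl, Ctsd and Fn1 stayed lower with TMM factors, at ratios of 0.335, 0.318, 0.489 and 0.402. Cspg4, a proteoglycan, stood at 2.71 against 73.6 CPM (0.0368, 0.0146 to 0.0773), with 7.89 and 5.73 CPM in IL-4/C1q EV and IL-1a/TNFa/C1q EV. Enpp2, which makes lysophosphatidic acid, stood at 11.6 against 181 CPM (0.0642, 0.0428 to 0.0929), with 43.8% of its MAPS UMIs in 1 cell, and Postn at 5.80 against 94.6 CPM (0.0613, 0.0338 to 0.103). By list, 23 of 30 lysosomal genes were past 1.5-fold lower and 3 higher, or 13 and 6 with TMM factors. Of 25 resting genes 18 were lower and 4 higher, or 10 and 7. Of all 4880 genes 55.8% were lower and 18.5% higher, or 26.8% and 39.7% with TMM factors. Median log2 ratios of the lysosomal, resting and phagocytic lists were -1.50, -1.46 and -1.62 in Spp1-high cells. In the remaining microglia they were -1.35, -1.26 and -1.20, so these lists were lower in both states. Disease-associated genes outside the rule split, with 12 of 29 higher and 15 lower, or 14 and 8.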

How the data were processed

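Gene by cell tables of UMI counts from 4 libraries were used as deposited by the authors. Reads were processed with Cell Ranger 7.0.0, bcl2fastq 5.0.1 and Seurat 4.1.0 on GRCm39, per the submitters' processing notes, while the matrices name Cell Ranger 8.0.1, per the file headers. Filters and cell states are those given with the results. Members and gene lists were chosen with earlier results of these data known. UMI counts were summed per library and state and tested with edgeR 4.0.16 (quasi-likelihood, TMM, Benjamini-Hochberg, library as a block because both states come from the same suspension) in R 4.3.3, with DESeq2 1.42.0 as an alternative. The 55357 gene IDs of the files gave 54456 symbols, with counts of IDs that share a symbol summed. Libraries were compared as ratios of CPM among genes with at least 100 UMIs in both Spp1-high sets together, with no test, since each group is 1 library, and intervals cover counting error only. Cell tables used Python 3.11.15, scanpy 1.11.5 and scipy 1.17.1, and doublets were called with Scrublet in scanpy but kept. Free RNA was read in endothelial cells and oligodendrocytes.

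Genes were named by rule. Every gene of the cell rule is described. Against the remaining microglia, the 10 highest and 10 lowest log2 folds were named among genes with an adjusted p under 0.05, 1 direction in 4 libraries and 50 CPM in 1 state, and up to 4 genes of each of 17 lists by size of fold. Between libraries, the 4 highest and 4 lowest were named by the interval bound nearest 1, and up to 3 of each list. Genes named otherwise are marked. Mitochondrial, ribosomal, haemoglobin, immunoglobulin and sex-linked genes and markers of other cell types were left out of the ranking. The edgeR fit was tested on simulated data first. Promoters are those of RefSeq for GRCm38.p6, which is not the build of the counts, and no coordinate was converted. Some items are not reported here.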

Additional observations from a re-analysis of the deposited data

Results flagged for a closer look

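In 10 cases the interval of a gene's ratio lay wholly past 1.5-fold in Spp1-high cells and wholly on the other side of 1 in the remaining microglia of the same pair of libraries. The difference between the states was not tested, and many of these values rest on few cells. In IL-4/C1q EV over UT EV, Fabp4 had a ratio of 0.440 in Spp1-high cells and 2.94 in the remaining microglia, with UMIs in 12 and 17 Spp1-high cells. Ccl8 had 0.252 and 1.70, with UMIs in 23 and 52 cells.

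In IL-1a/TNFa/C1q EV over UT EV, Ptn, a secreted growth factor, had a ratio of 2.45 in Spp1-high cells and 0.908 in the remaining microglia, and 1 cell held 33.1% of its UMIs. Lyz1, a lysozyme, had 0.264 and 3.5, and 1 UT EV cell held 81.0% of its UMIs there. Hilpda, a lipid droplet protein, had 0.492 and 1.30, with UMIs in 67 and 72 cells, and Cxcl10 had 1.86 and 0.953, with UMIs in 61 and 40 cells. Ube2c, a mitotic ubiquitin-conjugating enzyme, had 0.321 and 2.17, with UMIs in 12 and 16 cells.

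In UT EV over MAPS, 3 proliferation genes were higher in Spp1-high cells and lower in the remaining microglia. Ube2c had a ratio of 6.42 in Spp1-high cells and 0.565 in the remaining microglia, with UMIs in 16 and 5 Spp1-high cells. Cenpf, a centromere protein, had 5.20 and 0.438, with UMIs in 15 and 2 cells, and Birc5 (survivin) had 4.27 and 0.683, with UMIs in 20 and 6 cells.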

How the results depend on the processing

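Shares of gated microglia are given for IL-4/C1q EV, IL-1a/TNFa/C1q EV, UT EV and MAPS in that order, against the reported 4.35%, 4.97%, 6.06% and 2.86%. A signature of 0.5% gave 5.67%, 6.58%, 7.96% and 6.31%, and one of 2% gave 3.19%, 3.75%, 4.33% and 1.12%. Thinning to 1000 UMIs, with the gate applied again to fewer UMIs, gave 3.37%, 2.46%, 4.05% and 2.48%. Cells of at least 5000 UMIs, chosen after seeing the data, gave 17.2%, 20.8%, 20.8% and 5.64%. The signature without Spp1 gave 0.103%, 0.0971%, 0.0725% and 2.22%, and leaving out cells with 2 or more macrophage marker UMIs gave 3.66%, 3.82%, 4.64% and 2.37%. With interferon-high cells left out of the denominator, also chosen after seeing the data, IL-4/C1q EV had 6.10%. Removing called doublets, a common UMI floor, a gate of 5 UMIs and a mitochondrial limit of 10% left these shares within their intervals.

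Against the remaining microglia, 2710 genes rose and 1954 fell. Both states come from one suspension per library, so the library was the block; with no replicate block 339 rose and 239 fell, and 31 of 76 named genes lost their call. Total UMIs gave 962 and 6511, and thinning gave 416 and 445. Cells of at least 5000 UMIs gave 1796 higher, and no filter on low counts 3014 lower. Leaving out 1 library gave 2185 to 2425 higher and 1356 to 2013 lower. DESeq2 gave 2482 and 1553. Against the remaining microglia none of the 76 named genes changed direction where an alternative gave it a value, which thinning did for 54. Between libraries 8 of the 155 named ratios, all between 0.691 and 1.26 as reported, crossed 1 under an alternative, and thinning gave a value for 22 and leaving out macrophage-marker cells for 111.

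For IL-4/C1q EV over UT EV, with 46 higher and 116 lower, a minimum of 30 UMIs gave 312 and 566, thinning 6 and 10, and leaving out macrophage-marker cells 26 and 70. The mean of per-cell CPM, chosen after seeing the data, gave 79 higher. For IL-1a/TNFa/C1q EV over UT EV, with 41 and 216, TMM gave 97 and 105, 30 UMIs 196 and 903, and thinning 7 and 6, while leaving out macrophage-marker cells gave 139 lower. For UT EV over MAPS, with 901 and 2725, TMM gave 1937 and 1308 and thinning 118 and 98, and 30 UMIs gave 5515 lower. Thinning and the UMI minimum also change how many genes are tested, and the cause of the other changes was not tested. With 1 library a group, no setting stands in for a replicate, and genes under 100 UMIs were not compared between libraries.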
